A study of Mus musculus with 6 samples.

Results

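The genes described here carry out glycolysis, import the nutrients that feed it and export lactate. They comprise glucose transporters, the enzymes from hexokinase to lactate dehydrogenase, lactate transporters, the kinases that shut off pyruvate dehydrogenase, the regulator Hif1a, and carriers for amino acids and iron. They were listed by name, 36 genes in all and by no threshold on these values, and 32 of these had a probe set annotated to exactly 1 gene symbol among 19938 genes measured. The other 4 members, Gpi1, Pfkfb1, Gapdh and Eno1, had no such probe set and are not analysed here. The 25 probe sets that list Gapdh list other symbols beside it.

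The study profiled natural killer (NK) cells, cytotoxic lymphocytes of innate immunity. The cells were sorted straight after harvest from spleens of C57Bl/6 mice aged 8 to 12 weeks, as YFP+CD27+NK1.1+CD3- cells. RNA was hybridised to Affymetrix arrays, 3 for the genotype 15a/16-1FKO, called the knockout here, and 3 for the genotype Ctrl, called the control. Both genotypes went through the same YFP gate, and neither the driver of the deletion nor the makeup of the control genotype is given in the sources used here. The submitters describe the 3 arrays of each genotype as technical replicates, and p-values here measure only the spread among these arrays. The sex-linked transcripts below differed among the control arrays, however, so these did not all hold the same RNA, and the labels do not say how many mice each array drew on. Arrays are referred to by their replicate number in the labels. The comparison asks how CD27+ NK cells differ without miR-15a and miR-16-1, and the study's title names c-Myb, a transcription factor, as their target.

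Glycolysis splits glucose into pyruvate in the cytosol and yields ATP and precursors for growth. Pyruvate then either enters mitochondria through pyruvate dehydrogenase or is reduced to lactate, which leaves the cell with a proton. Resting NK cells run this pathway at a low rate, and cytokine stimulation raises glucose uptake, amino acid uptake through the SLC7A5 and SLC3A2 heterodimer, and expression of the transferrin receptor CD71, encoded by Tfrc. The transcription factors HIF-1 and MYC are known inducers of many of these genes.

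The mature microRNAs of the deleted locus, and miR-15b-5p of the related cluster that the knockout was not labelled as lacking, are shown because they share the 7 bases that pair with target transcripts. The seed, bases 2 to 8 counted from the 5′ end, is in capitals. Sequences are from RefSeq, build GRCm38.p6.
mmu-miR-15a-5p: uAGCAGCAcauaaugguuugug
mmu-miR-16-5p: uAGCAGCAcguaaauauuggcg
mmu-miR-15b-5p: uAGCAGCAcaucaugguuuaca
The mature miR-15a-5p lies at chr14:61632075-61632096 (minus strand), miR-16-5p of the same cluster at chr14:61631936-61631957 (minus strand) and miR-15b-5p at chr3:69009775-69009796 (plus strand). The same mature miR-16-5p is also encoded on chromosome 3, at chr3:69009918-69009939 (plus strand). Whether transcripts of the glycolytic genes match this seed was not tested.

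At the deleted locus the arrays followed their labels. The probe set of Mir15a read 7.14, 6.02 and 6.69 on the control arrays and 4.37, 3.53 and 3.43 on the knockout arrays (log2), without overlap. Its difference of -2.84 passed the test (limma, adjusted p = 0.0296), but not when control array 1 or 3 or knockout array 2 or 3 was left out (-2.58 to -2.81). Mir16-1 read 3.19, 3.20 and 3.77 in control and 2.61, 2.68 and 3.00 in knockout arrays, low values in both genotypes. Its values did not overlap either, at a difference of -0.63 (95% interval -1.06 to -0.19), but it did not pass the test (limma, adjusted p = 0.999). Xist, transcribed from the inactive X, read 9.65, 3.89 and 8.86 on control and 7.56, 8.58 and 8.84 on knockout arrays. The Y-linked Eif2s3y read 2.33, 7.95 and 6.29 on control arrays and lay between 6.18 and 7.88 on knockout arrays. Control array 2 thus had little Xist and control array 1 little Eif2s3y, while the other 4 arrays carried both. The NK receptor gene Ncr1 and Klrb1c, which encodes the sorted NK1.1 antigen, differed by 0.05 (SE 0.15) and 0.01 (SE 0.13). All 8 NK markers lay above 4.13, the level under which 95% of 1027 olfactory receptor genes lay and which stands here for background. Of 7 T cell markers 3 did, namely Cd3d, Cd3e and Cd3g, although the gate was CD3-. The summed log2 level of the T cell markers was 34.9 to 35.4 in control and 33.7 to 36.3 in knockout arrays. For 7 neutrophil markers, 6 of them above background, the sum was 32.9 to 35.9 in control and 33.2 to 38.5 in knockout arrays, with S100a8 at a difference of 0.77 (SE 0.32). For the 5 measured of 9 erythroid markers, relevant because red cell precursors are rich in Tfrc, 2 were above background and the sums were 19.1 to 20.4 in control and 18.5 to 20.0 in knockout arrays. Of the B cell, macrophage and platelet markers measured, 2 each lay above background. The part of these transcripts in the results was not tested. In a population of sorted cells, fewer cells that express a gene and less RNA of it per cell cannot be told apart.

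No measured gene of the pathway differed between the genotypes past the threshold. Of the 32 measured members, 0 had an adjusted p under 0.05 (limma with Benjamini-Hochberg adjustment over 19938 genes), against 0.0201% of all genes. No member reached an unadjusted limma p under 0.05 either, where 3.47% of all genes did. The values of the genotypes overlapped for every one of the 32 members, whereas for 8.33% of all genes they did not. The adjusted p by limma was 0.999 for each member, and the smallest unadjusted p, that of Pdk1, was 0.138. Differences of the knockout from the control on the log2 scale were positive for 18 members and negative for 14. Their median was 0.02, beside -0.01 over all genes, and they ranged from -0.29 (Pdk2) to 0.31 (Pdk1). The median size of a member's difference, 0.09, was about that over all genes, 0.11, and smaller than the members' median standard error of 0.17. By the level of olfactory receptors, 26 members were above background and 6 were not, namely Hk2, Aldoc, Pfkfb4, Eno2, Ldhb and Slc16a1.

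**Figure D1:**
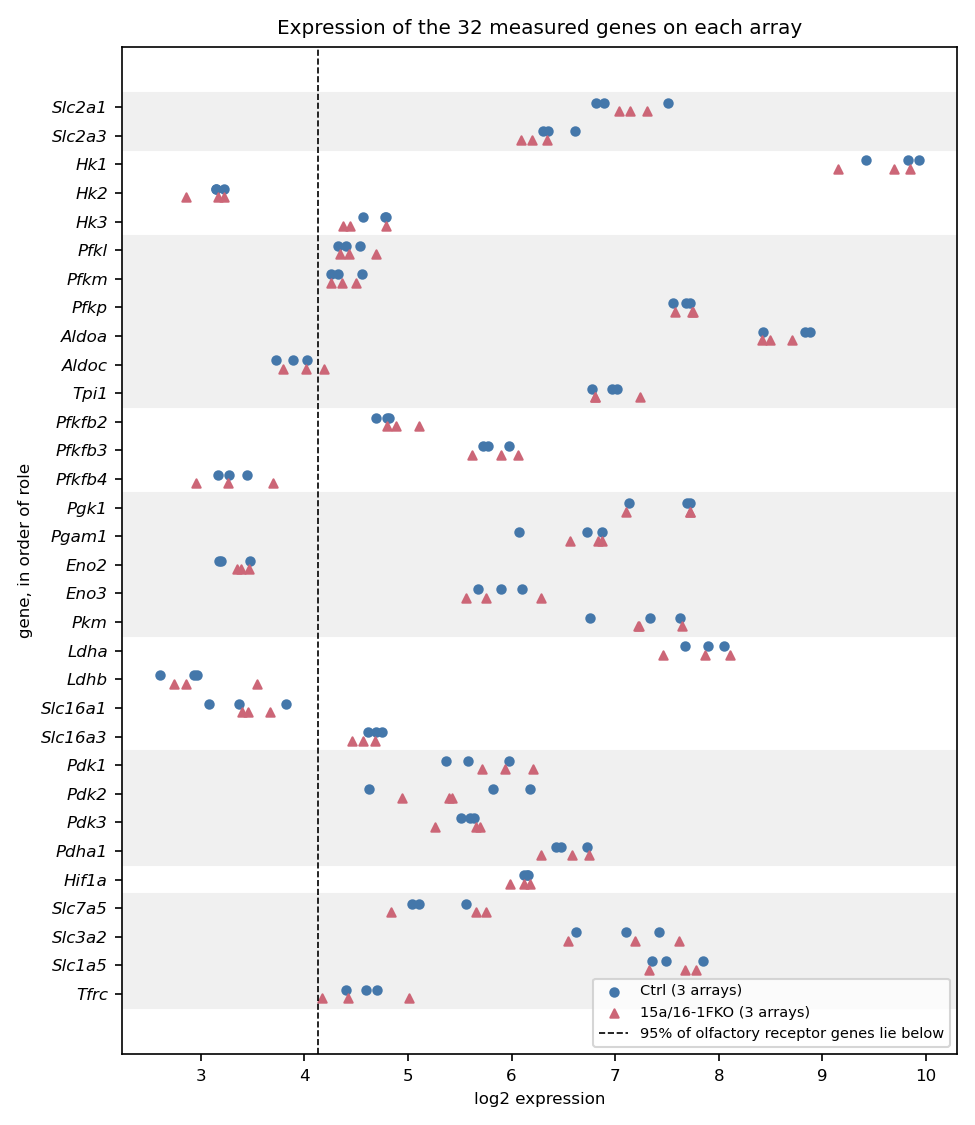
Log2 expression (horizontal axis) of the 32 measured genes on the 3 control arrays (circles) and the 3 knockout arrays (triangles), ordered by role with alternating shading; the dashed line marks 4.13, the level under which 95% of olfactory receptor genes lay. For each gene the values of the genotypes overlap, and 6 genes have a mean left of the line.

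The precision of these arrays set how small a change could have been seen. For 24 of the 32 members the 95% interval of the difference lay wholly within 1.5-fold either way, as it did for 14214 of 19938 genes. It lay within 2-fold for 31 members, the exception being Pdk2. The 8 members whose interval reached past 1.5-fold were Hk1, Pgam1, Pkm, Ldhb, Pdk1, Pdk2, Slc7a5 and Slc3a2. A p that misses the threshold does not show that these genes are expressed alike. The intervals, like the p-values, take in only the spread among these arrays, which the submitters describe as technical replicates. The mean log2 level of the 32 members on the control arrays 1, 2 and 3 was 5.66, 5.84 and 5.76, and on the knockout arrays 5.71, 5.82 and 5.77. These means differed more among the arrays of a genotype than between the genotypes. Control array 1 held the lowest control value of 15 members and the highest of 3.

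**Figure D2:**
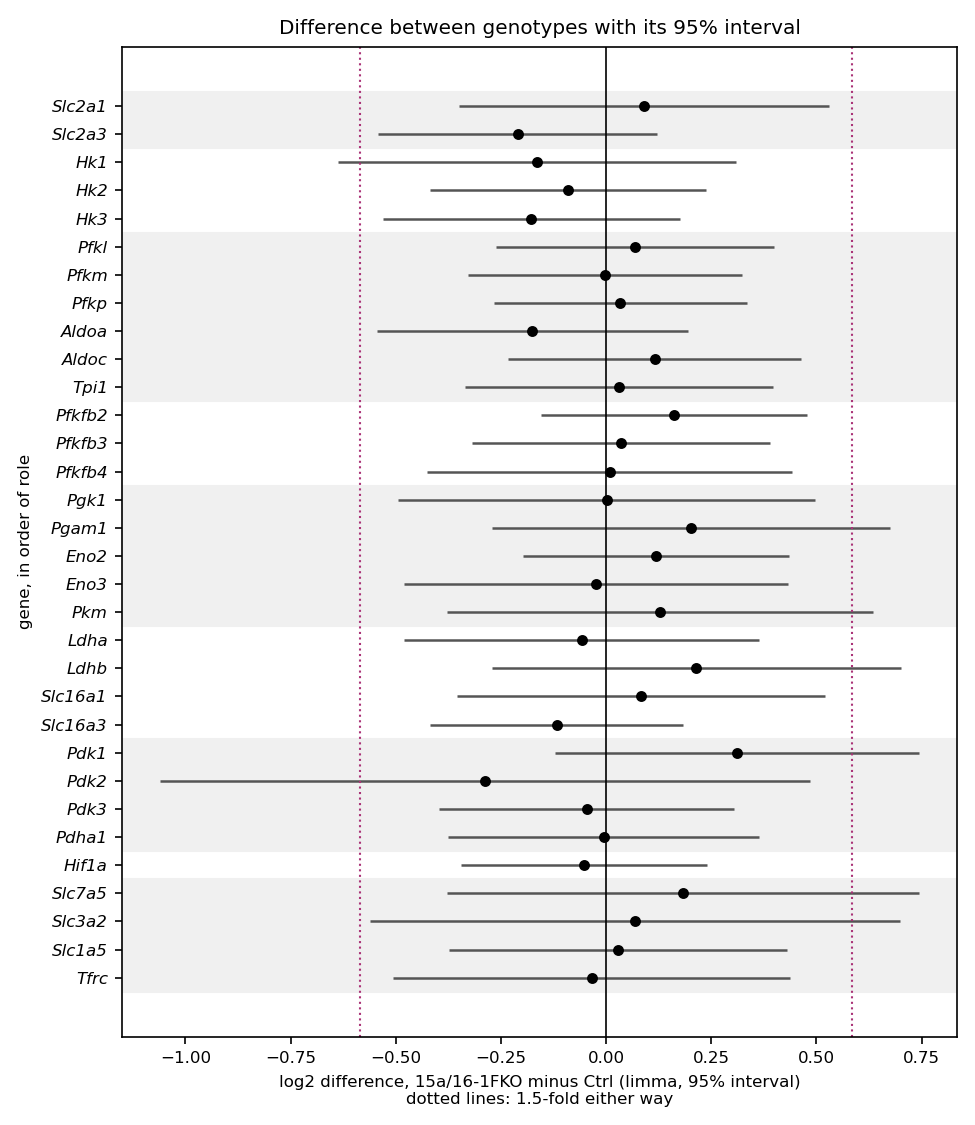
Log2 difference of knockout from control for the 32 measured genes, with the 95% interval from limma (bars) and lines at 1.5-fold either way (dotted). Every interval includes 0, and 24 of the 32 lie between the dotted lines.

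Glucose enters lymphocytes through GLUT1, encoded by Slc2a1, and GLUT3, encoded by Slc2a3. Slc2a1 read 6.81, 7.51 and 6.89 on the control arrays and 7.15, 7.03 and 7.31 on the knockout arrays. The control array 2 was the highest of the 6, and the knockout values lay within the control range. The difference was 0.09 (SE 0.20, 95% interval -0.35 to 0.53; limma, adjusted p = 0.999). Slc2a3 read 6.30, 6.61 and 6.35 in control and 6.09, 6.34 and 6.20 in knockout arrays. Its knockout values were on the low side but knockout array 2 lay above control array 1, and the difference was -0.21 (SE 0.15, interval -0.54 to 0.12). The carriers thus had differences of opposite sign, and neither passed the test.

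Hexokinases trap glucose in the cell as glucose 6-phosphate. All 3 hexokinase genes had negative differences, none past the test. Hk1, the isozyme of most resting tissues, read 9.83, 9.42 and 9.93 in control and 9.69, 9.15 and 9.84 in knockout arrays. In each genotype array 2 was the lowest, and the difference was -0.16 (SE 0.21, interval -0.64 to 0.31). Another probe set of Hk1 differed by -0.07 (SE 0.15), but its mean over the 6 arrays was 5.85, beside 9.64 for the set used. In that other set array 2 was the highest in control (6.11) and the lowest in knockout arrays (5.75). By its number the set used lies among those of chromosome 14 genes. The other set lies among those of chromosome 10, where Hk1 is. Whether the set used reads Hk1 itself was not tested. Hk2, the isozyme induced on activation, was below background, with values between 3.14 and 3.23 in control and between 2.85 and 3.23 in knockout arrays. Its difference was -0.09 (SE 0.15). Hk3, a hexokinase of myeloid cells, read 4.78, 4.79 and 4.57 in control and 4.79, 4.37 and 4.44 in knockout arrays, with a difference of -0.18 (SE 0.16, interval -0.53 to 0.18). Knockout array 1 was level with control arrays 1 and 2, and the other knockout arrays were the lowest of the 6.

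Phosphofructokinase makes the committed step, and its subunits are encoded by Pfkl, Pfkm and Pfkp. Their differences were 0.07 (SE 0.15), 0.00 (SE 0.15) and 0.03 (SE 0.13). The 6 values of Pfkp lay between 7.55 and 7.75, among the tightest of the pathway, and its interval of -0.27 to 0.33 was correspondingly narrow. The bifunctional PFKFB enzymes set the level of fructose 2,6-bisphosphate, the main activator of phosphofructokinase. Pfkfb2 read 4.80, 4.69 and 4.82 in control and 5.11, 4.89 and 4.80 in knockout arrays. Knockout array 3 lay under control array 3, so that the genotypes overlapped, and the difference was 0.16 (SE 0.14, interval -0.16 to 0.48). Pfkfb3, the form with the highest kinase activity and a known HIF-1 target, differed by 0.04 (SE 0.16), and Pfkfb4, below background, by 0.01 (SE 0.19).

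Aldolase cleaves fructose 1,6-bisphosphate, and triose phosphate isomerase interconverts its products. Aldoa read 8.43, 8.88 and 8.83 in control and 8.50, 8.70 and 8.41 in knockout arrays, with a difference of -0.18 (SE 0.16, interval -0.55 to 0.19). Control arrays 2 and 3 were above all knockout arrays, while control array 1 lay among them. Aldoc, the brain form, was below background and differed by 0.12 (SE 0.16). Tpi1 differed by 0.03 (SE 0.16), with 6.78 to 7.01 in control and 6.80 to 7.24 in knockout arrays.

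In the lower pathway, where ATP is gained, the 5 measured genes had a median standard error of 0.21 beside a median size of difference of 0.12. Pgk1, phosphoglycerate kinase, read 7.13, 7.69 and 7.72 in control and 7.10, 7.72 and 7.72 in knockout arrays. In both genotypes array 1 was the lowest, and the group means were 7.51 ± 0.33 and 7.52 ± 0.36 (mean ± SD, n = 3 each), a difference of 0.00 (interval -0.49 to 0.50). Of its 3 probe sets, 2 carried the same values on all 6 arrays and the third differed by 0.05 (SE 0.19). Those 2 are numbered among sets of chromosome 12 and chromosome 3 genes. The third is numbered among those of X, where Pgk1 lies. Pgam1, phosphoglycerate mutase, read 6.08, 6.87 and 6.73 in control and 6.56, 6.87 and 6.84 in knockout arrays, a difference of 0.20 (SE 0.21). Control array 1 was lower than the other 5 arrays and carried most of that difference, which was -0.04 without it. A further probe set of Pgam1 differed by -0.08 (SE 0.27), the opposite way. That further set is numbered among those of chromosome 3 genes, whereas Pgam1 is on chromosome 19.

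Pyruvate kinase, which makes pyruvate and ATP in the last step, is encoded by Pkm in lymphocytes. It read 6.76, 7.34 and 7.62 in control and 7.22, 7.65 and 7.23 in knockout arrays, with a difference of 0.13 (SE 0.23, interval -0.38 to 0.63). Its control arrays spanned the knockout range nearly whole. Another probe set of Pkm gave -0.37 (SE 0.23), so the sign depended on the probe set. That other set is numbered among those of chromosome 5 genes, and the set used among those of chromosome 9, where Pkm is. The enolase genes analysed were Eno2, the neuronal form, below background at a difference of 0.12 (SE 0.14), and Eno3, the muscle form, at -0.02 (SE 0.20). Because Eno1 and Gapdh are not analysed here, the lower pathway is represented without its principal enolase and its dehydrogenase.

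**Figure D3:**
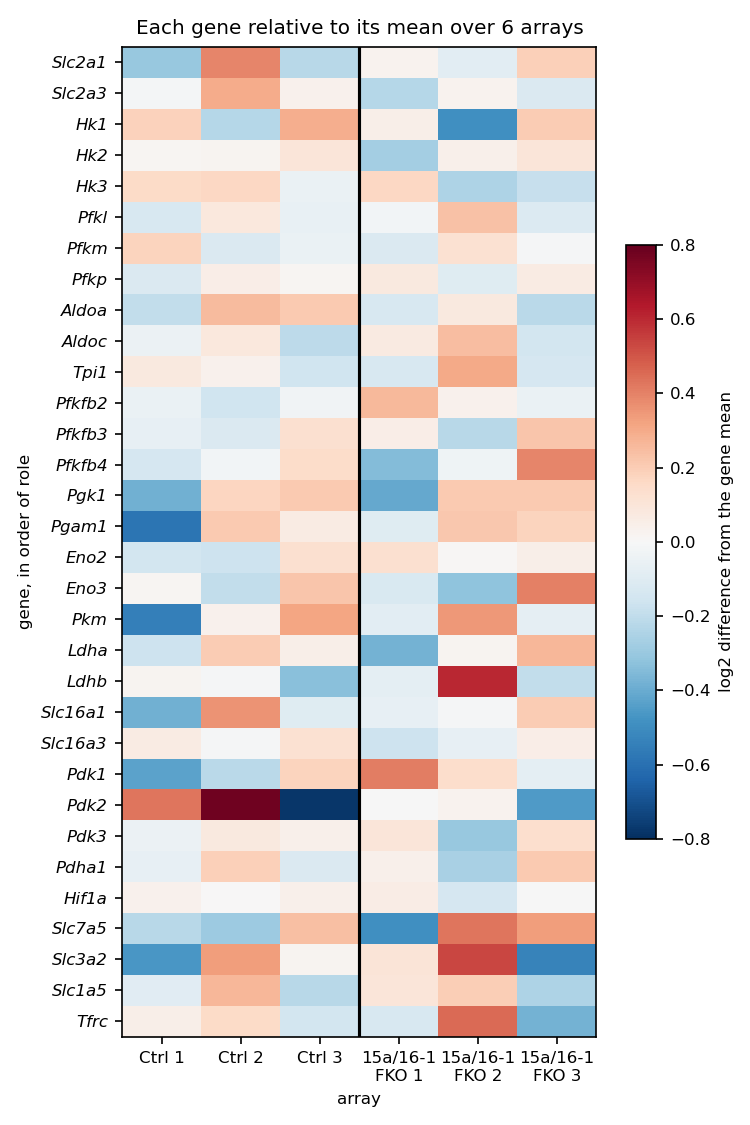
Each measured gene on each of the 6 arrays as its log2 difference from its own mean over the 6 arrays (red above, blue below); the vertical line separates the control arrays from the knockout arrays. Pgk1, Pgam1, Pkm and Ldha are lowest on array 1 within each genotype, and Pdk2 is at 4.62 on control array 3 against 5.82 and 6.17 on the other control arrays.

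Lactate dehydrogenase regenerates NAD+ by reducing pyruvate. Ldha, the subunit of the muscle type, read 7.68, 8.05 and 7.89 in control and 7.46, 7.87 and 8.11 in knockout arrays. The knockout arrays were both the lowest and the highest, and the difference was -0.06 (SE 0.19, interval -0.48 to 0.36), or 0.96-fold with an interval of 0.72 to 1.29. Ldhb, the heart-type subunit, was below background, with 2.96, 2.93 and 2.61 in control and 2.86, 3.54 and 2.75 in knockout arrays. Knockout array 2 alone was high, the difference of 0.21 (SE 0.22) became -0.03 without it, and another probe set gave 0.08 (SE 0.23). In that other set knockout array 2 held the lowest value (2.62). The set used is numbered among those of chromosome 19 genes, whereas Ldhb is on chromosome 6. Of the proton-coupled lactate carriers, Slc16a1 (MCT1) was below background and differed by 0.08 (SE 0.20). Slc16a3 (MCT4), the export carrier of glycolytic cells, read 4.69, 4.62 and 4.75 in control and 4.46, 4.57 and 4.68 in knockout arrays. That was a difference of -0.12 (SE 0.13, interval -0.42 to 0.18), with knockout array 3 inside the control range.

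Ldha and Pgk1 are textbook targets of HIF-1, and the start-site windows that carry its core motif in them are shown as the clearest textbook examples among the members (RefSeq, build GRCm38.p6, 250 bases before to 50 after an annotated start). Capitals mark ACGTG or its reverse complement; where these overlap as CACGTG the E-box bound by MYC is formed. The Ldha window lies at chr7:46845554-46845853 (plus strand) and the Pgk1 window at chrX:106186850-106187149 (plus strand).
Ldha: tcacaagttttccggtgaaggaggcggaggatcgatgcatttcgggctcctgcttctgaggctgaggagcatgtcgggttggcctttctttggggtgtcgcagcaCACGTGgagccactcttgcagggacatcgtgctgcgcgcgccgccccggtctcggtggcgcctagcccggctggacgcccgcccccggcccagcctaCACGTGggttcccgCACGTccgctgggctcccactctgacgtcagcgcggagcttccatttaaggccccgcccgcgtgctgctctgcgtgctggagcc
Pgk1: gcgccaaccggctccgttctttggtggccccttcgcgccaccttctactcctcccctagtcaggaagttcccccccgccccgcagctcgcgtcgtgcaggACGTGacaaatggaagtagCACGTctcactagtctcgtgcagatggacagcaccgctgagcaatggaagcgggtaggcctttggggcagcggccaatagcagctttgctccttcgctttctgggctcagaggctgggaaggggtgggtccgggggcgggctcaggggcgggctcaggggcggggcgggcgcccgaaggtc
The Ldha window held 5 matches to ACGTG counted on both strands, from 2 CACGTG sites and a lone CACGT, and the Pgk1 window held 2 matches and no CACGTG. A further annotated Ldha start had no match in its window.

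Sequence near the start sites was not used to choose the list. The list holds known HIF-1 targets, however, so its share of the HIF-1 core motif is not independent of that choice. Of 36 members, 33 had windows in the RefSeq table, 53 windows in all; Slc2a3, Slc7a5 and Slc1a5 were not among them. ACGTG, searched on both strands, was present in 49.1% of the members' windows, against 19.6% of 32851 windows of all genes and 25.3% of 11051 windows of genes above background on these arrays. The median GC content was 60.3% in the members' windows, 52.7% in all windows and 60.7% in those of genes above background. CACGTG, which contains ACGTG, was present in 13.2% of the members' windows, 7.2% of all windows and 9.8% of those of genes above background. AACNG, the core that MYB proteins bind, was present in 71.7%, 80.3% and 78.0%, respectively. Several members had more than 1 window, and overlapping windows, as for Aldoa and Tfrc, counted the same match again. A match is a description of the letters, not a site.

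Pyruvate dehydrogenase kinases switch off entry of pyruvate into mitochondria, and they held both extremes of the list. Pdk1, a HIF-1 target, read 5.37, 5.58 and 5.97 in control and 6.20, 5.94 and 5.71 in knockout arrays. Control array 3 lay above knockout arrays 2 and 3, and the means were 5.64 ± 0.31 and 5.95 ± 0.24 (mean ± SD, n = 3 each). The difference was 0.31 (SE 0.19, interval -0.12 to 0.74), which corresponds to 1.24-fold. Pdk2, the widely expressed kinase, read 5.82, 6.17 and 4.62 in control and 5.39, 5.42 and 4.94 in knockout arrays, a difference of -0.29 (SE 0.34, interval -1.06 to 0.49). Control array 3 was the lowest of all 6. Without control array 3 the genotypes no longer overlapped for either gene, as for 16.3% of all genes. The differences were then 0.48 for Pdk1 (interval 0.04 to 0.91) and -0.75 for Pdk2 (interval -1.21 to -0.28). Both had an unadjusted p under 0.05 by limma, as 2.82% of all genes did (562 genes), and did not pass after adjustment. Pdk3 differed by -0.05 (SE 0.16) and Pdha1, the catalytic subunit that the kinases phosphorylate, by -0.01 (SE 0.16).

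The genes Pgk1, Pdk3 and Pdha1 lie on the X chromosome. With a covariate for the sex-linked transcripts the differences were 0.00 for Pgk1, -0.05 for Pdk3 and 0.00 for Pdha1, beside 0.00, -0.05 and -0.01 without it. The Pgk1 set in this fit, however, is numbered among those of chromosome 12 genes. The Pgk1 set numbered among those of X was not fitted with the covariate.

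Hif1a encodes the oxygen-regulated subunit of HIF-1, which is controlled mostly by protein stability. Its transcript was among the steadiest here, at 6.15, 6.12 and 6.16 in control and 6.18, 5.98 and 6.12 in knockout arrays. The difference was -0.05 (SE 0.13), and the interval of -0.35 to 0.24 corresponds to 0.79-fold to 1.18-fold. Genes of the HIF pathway and genes induced by hypoxia, a list of 18 with 17 measured, were positive in 6 cases and negative in 11, and the median was -0.09. Of these 17, 0 passed over all genes and 1 reached an unadjusted limma p under 0.05. That gene was Bnip3, a mitophagy receptor and hypoxia-induced gene. It read 4.85, 4.76 and 5.72 in control and 4.62, 4.64 and 4.26 in knockout arrays, without overlap. The difference was -0.60 (SE 0.25, interval -1.16 to -0.05; limma, adjusted p = 0.999). Control array 3 was far above the other control arrays, and without it the difference was -0.30 (interval -0.70 to 0.11). It was -0.48 without knockout array 3 and -0.66 without knockout array 1, and both intervals then included 0. The other probe set of Bnip3 gave -0.43 (SE 0.27). The set used is numbered among those of chromosome 14 genes, whereas Bnip3 is on chromosome 7. Whether it reads Bnip3 itself was not tested.

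The other genes of that list without overlap had higher knockout values. Mxi1, a MYC antagonist, read 4.17, 4.33 and 4.31 in control and 4.52, 4.69 and 4.48 in knockout arrays, with a difference of 0.30 (SE 0.14). Ndrg1, named after its values were seen, read 5.09, 5.35 and 5.08 in control and 5.60, 5.42 and 5.38 in knockout arrays, with a difference of 0.30 (SE 0.14). Egln1, the prolyl hydroxylase that marks HIF-1 for destruction, and Hif1an, the asparaginyl hydroxylase that blocks its activity, were also named after their values were seen. They overlapped between genotypes, at 0.36 (SE 0.20) and -0.29 (SE 0.17). Signs within the list were mixed, and 3 of 17 without overlap stands beside 8.33% over all genes.

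**Figure D4:**
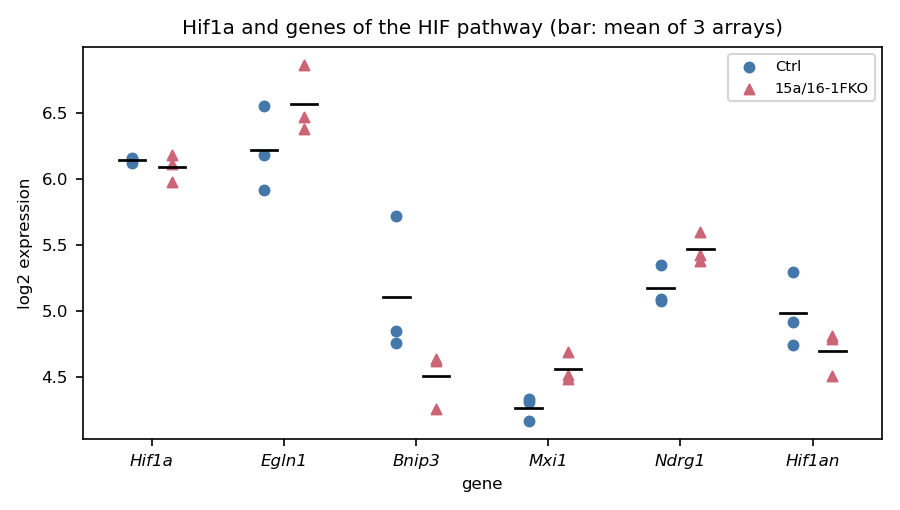
Log2 expression of Hif1a and 5 genes of the HIF pathway list on control (circles) and knockout arrays (triangles), with the mean of 3 arrays as a bar. Bnip3 is lower and Mxi1 and Ndrg1 are higher on all 3 knockout arrays, while Hif1a, Egln1 and Hif1an overlap.

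Amino acid and iron uptake are raised together with glycolysis in activated lymphocytes. Slc7a5, the light chain of the large neutral amino acid carrier, read 5.10, 5.04 and 5.56 in control and 4.84, 5.76 and 5.66 in knockout arrays. Knockout array 1 was the lowest of the 6 and the other knockout arrays the highest. The difference was 0.18 (SE 0.25, interval -0.38 to 0.74), and without knockout array 1 it was 0.47 (interval 0.03 to 0.92; limma, adjusted p = 0.999). Slc3a2, its heavy chain CD98, read 6.62, 7.42 and 7.11 in control and 7.19, 7.62 and 6.55 in knockout arrays, and differed by 0.07 (SE 0.28). Slc1a5, a glutamine carrier, differed by 0.03 (SE 0.18). Tfrc read 4.59, 4.70 and 4.40 in control and 4.42, 5.01 and 4.17 in knockout arrays, and differed by -0.03 (SE 0.21, interval -0.51 to 0.44). The knockout arrays of Tfrc again held both the lowest and the highest value.

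Around the pathway, 95 genes in 7 lists, of which 88 were measured, were higher in the knockout mean for 36 genes and lower for 52. Their median was -0.06, and 0 passed over all genes (limma). An unadjusted limma p under 0.05 was reached by 1 of the 88, Bnip3, beside 3.47% of all genes, and 6 of the 88 had no overlap between the genotypes, beside 8.33% of all genes. The median was -0.09 over 17 other glycolytic isozymes and branch enzymes, where Pgk2, the testis form, and Pklr, the liver and red cell pyruvate kinase, had the smallest p at -0.32 (SE 0.19) and -0.29 (SE 0.20), both below background. It was -0.08 over 9 genes of pyruvate entry into mitochondria. Dlat, the acetyltransferase of pyruvate dehydrogenase, differed there by -0.25 (SE 0.16) and its binding protein Pdhx by 0.26 (SE 0.20).

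In the pentose phosphate pathway, which branches from glucose 6-phosphate, the median over 7 genes was -0.02. The pathway's transaldolase Taldo1 differed by -0.41 (SE 0.23) and its isomerase Rpia by 0.51 (SE 0.28), both with overlap between genotypes. Among 15 regulators of the MYC and mTORC1 pathways the median was 0.02. The RAG GTPase Rragc, which recruits mTORC1 to lysosomes, and Tsc1, which restrains it, were each higher on all 3 knockout arrays, by 0.22 (SE 0.13) and 0.23 (SE 0.14). These were the 2 genes of the 15 without overlap, beside 8.33% of all genes, and neither passed the test. Myc itself differed by -0.08 (SE 0.21). Over 14 genes of glutamine, serine and other amino acids the median was -0.04, and the serine synthesis genes Psat1 and Psph had the smallest p at -0.21 (SE 0.17) and -0.17 (SE 0.16).

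Iron handling genes had a median of -0.05 over 9 genes. Slc11a2, the divalent metal carrier that moves iron out of endosomes after transferrin uptake, read 5.69, 6.06 and 5.89 in control and 6.18, 6.41 and 6.08 in knockout arrays. It was higher on all 3 knockout arrays, by 0.34 (SE 0.16; limma, adjusted p = 0.999). Hfe, a regulator of transferrin receptor, differed by -0.30 (SE 0.16) below background. For reference, 6 housekeeping genes had a median of 0.04, with Actb at 0.03 (SE 0.13), and Myb, the factor of the study's title, differed by 0.22 (95% interval -0.07 to 0.51). Myb read 7.20, 7.08 and 7.05 in control and 7.38, 7.32 and 7.28 in knockout arrays, without overlap, and did not pass the test (limma, adjusted p = 0.999).

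**Figure D5:**
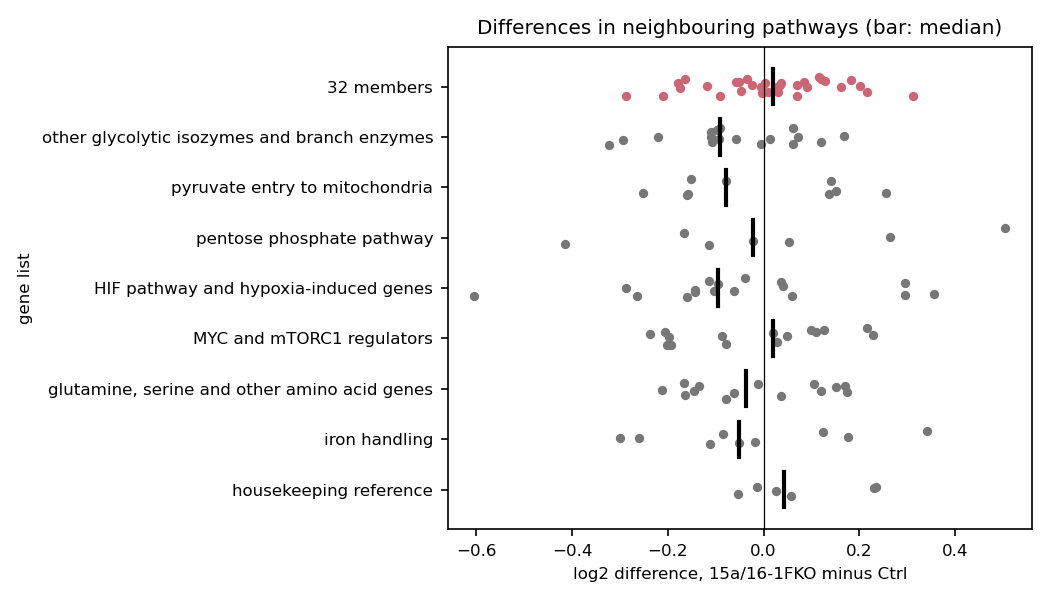
Log2 difference of knockout from control for each measured gene (points, jittered vertically) of the 32 members, of 7 lists of neighbouring pathways and of 6 housekeeping genes, with the median of each list as a bar. List medians lie between -0.09 and 0.04, and Bnip3 at -0.60 is the farthest point from 0.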

How the data were processed

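RNA of sorted CD27+ NK cells was profiled on 6 arrays, 3 per genotype. The authors deposited log2 expression values of 35556 probe sets, between 0.74 and 13.6. RMA and Partek 6.6 are named, with no role, in the submitters' processing notes; no source used here names a genome build. Arrays carry no read depth, and their number limits the precision. GEO's platform annotation gave 1 symbol to 21789 probe sets, several to 1621 and did not list 12146; Entrez identifiers matched 21698 of the 21789 to the GRCm38.p6 gene table and changed 0 symbols. Each gene was represented by its probe set with the highest mean over 6 arrays. Probe set numbers mostly run with the chromosome of the gene. The sets used for Hk1, Pgk1, Ldhb and Bnip3, among others, are numbered among those of another chromosome. Which locus they read was not tested. Genotypes were compared by limma (version 3.58.1, R 4.3.3; functions lmFit and eBayes, two-sided tests), applied to the deposited values without a filter, with Benjamini-Hochberg adjustment over 19938 genes and a threshold of 0.05. The code was checked on simulated data. Differences are knockout minus control.

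The members and lists were chosen with earlier results of these data known. The rule for named genes took every measured member and 2 genes of smallest p per list. Values by array are given for key steps and for the 12 members of smallest p, except Eno2 and Aldoc. They are also given for Pgk1, Slc7a5, Slc3a2 and Tfrc, outside the rule. Myc and Actb were named outside the rule too, and others are marked in the text or serve as markers. Lists are described by counts and medians, without set tests. The 15 alternatives covered centring, a second quantile normalization, brightness, the replicate block, the variance prior, array weights, probe set choice, a covariate for sex-linked transcripts and each array left out.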

Additional observations from a re-analysis of the deposited data

How the results depend on the processing

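Under the 15 alternatives 0 members passed the adjusted threshold, out of 32, or of 26 where dim genes were left out (Hk2, Aldoc, Pfkfb4, Eno2, Ldhb and Slc16a1 were not tested there), with a smallest adjusted limma p of 0.991, and the members' median difference lay between -0.04 and 0.06. With single arrays left out, 0 to 2 members reached an unadjusted limma p under 0.05, beside 2.82% to 4.75% of all genes. They were Pdk1 and Pdk2 without control array 3, beside 2.82% of all genes, and Slc7a5 without knockout array 1, beside 3.69%. In these fits 2 to 4 members had no overlap between genotypes, beside 16.3% to 19.8% of all genes, since fewer arrays overlap less. Over all genes, 691 had an unadjusted limma p under 0.05, 308 when only genes at or above the median brightness were tested. Replicate numbers are shared by the genotypes. Deviations of same-numbered arrays correlated with r of 0.05, 0.15 and 0.14 over all genes and 0.12, 0.21 and 0.18 over genes above background, and over all genes each array correlated best with its own number of the other genotype. The labels do not say whether the numbers pair the arrays. With the replicate number as a block, 854 genes had an unadjusted limma p under 0.05. The members' SEs moved both ways, for example from 0.22 to 0.14 for Pgk1 and from 0.19 to 0.21 for Pdk1. In that fit 0 members reached an unadjusted or adjusted limma p under 0.05. Of the 88 neighbouring genes 5 then had an unadjusted limma p under 0.05 in place of 1, beside 4.28% of all genes: Rpia (0.51, SE 0.21), Taldo1 (-0.41, SE 0.15), Egln1, Bnip3 and Slc11a2 (0.34, SE 0.14). None of the 88 passed after adjustment.

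Signs of small differences were not stable: 23 of 32 members changed sign when some single array was left out, and 9 did not. The ranges without single arrays were -0.039 to 0.31 for Slc2a1, -0.32 to 0.040 for Hk1, -0.16 to 0.024 for Hk2, -0.031 to 0.14 for Pfkl, -0.066 to 0.086 for Pfkm, -0.016 to 0.090 for Pfkp, -0.12 to 0.10 for Tpi1, -0.067 to 0.15 for Pfkfb3 and -0.19 to 0.18 for Pfkfb4. They were -0.19 to 0.21 for Pgk1, -0.039 to 0.36 for Pgam1, -0.23 to 0.13 for Eno3, -0.11 to 0.32 for Pkm, -0.21 to 0.12 for Ldha, -0.032 to 0.37 for Ldhb and -0.088 to 0.28 for Slc16a1. They were -0.75 to 0.031 for Pdk2, -0.12 to 0.093 for Pdk3, -0.11 to 0.12 for Pdha1, -0.096 to 0.0033 for Hif1a, -0.18 to 0.35 for Slc3a2, -0.075 to 0.17 for Slc1a5 and -0.27 to 0.15 for Tfrc. Other reversals were Pfkm at 0.0063 and Pdha1 at 0.0032 with centred medians, and Pfkm at 0.0026, Tpi1 at -0.0096, Pgk1 at -0.029 and Slc1a5 at -0.0044 with a second quantile normalization. Array weights turned Pfkm to 0.019 and Tfrc to 0.00059, and the dimmest probe set turned Pgam1 to -0.081 and Pkm to -0.37. The cause of these changes was not tested.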
